A study of Mus musculus with 2 samples.

Results

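The peptide signalling genes described here are 48 genes of the mouse forebrain in 4 classes: 25 precursors of neuropeptides and peptide hormones, 5 genes for the granins Chga, Chgb and Scg2, the granin-like Vgf and the neurexophilin Nxph1, 4 processing enzymes, and 14 peptide receptors. They were chosen by symbol, matched through their identifiers in the GENCODE mouse annotation, and all 48 were found among the 43346 mouse genes of the deposited tables. The study measured total RNA by sequencing in the forebrain of B6NCrl mouse embryos at 13.5 days, with male and female embryos pooled. It had 1 group of 2 libraries, labelled biological replicates 1 and 2 and made from 10 ng of RNA with added spike-in RNA. Both tissue samples carried 1 donor code, so the spread between the libraries may be partly technical, and the design compared no conditions. Depth was 35378462 estimated counts in replicate 1 and 36793284 in replicate 2.

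Neuropeptides are made as larger precursor proteins that enter the secretory pathway and are packed into dense-core vesicles together with granins. Prohormone convertases cut the precursors after pairs of basic residues, carboxypeptidase E trims the exposed ends, and an amidating enzyme finishes many of the peptides, which then act mostly on G protein-coupled receptors. In the mature forebrain, peptides such as somatostatin, neuropeptide Y and cholecystokinin mark classes of interneurons, and others, such as the melanocortins, orexins and vasopressin, are made by neurons of the hypothalamus.

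The label of the tissue was checked against marker genes. All 7 forebrain identity markers were at 1 TPM (TPM scales a transcript's counts by its length and by the library total) or more in both libraries, and their median was 52.0 TPM. Of 8 midbrain and hindbrain markers, 7 were under 1 TPM in both libraries. The exception was Gbx2, which the thalamus also expresses, at 15.9 and 24.4 TPM.

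Of the 48 genes, 29 (60.4%) were at 1 TPM or more in both libraries, beside 59% of the 21474 protein-coding genes. Another 12 were under 1 TPM in both libraries and 7 crossed this level between them (Avp, Grp, Pcsk1, Sstr3, Npy1r, Npy2r and Oprm1). Their median mean level was 2.58 TPM, beside 3.92 TPM for all protein-coding genes. The classes differed in level. The median was 21.4 TPM for granins, Vgf and Nxph1 (25.2 and 19.3 TPM in replicates 1 and 2), and 21.2 TPM for the processing enzymes (19.1 and 23.4 TPM). For the receptors it was 1.02 TPM (1.21 and 0.865 TPM). For the precursors it was 5.70 TPM when taken on mean levels, but 2.81 and 3.37 TPM within replicates 1 and 2. The middle precursor was Pmch in replicate 1 and Trh in replicate 2, and these genes differed between the libraries in opposite directions, so that their means exceeded both library medians. On the log2(TPM + 1) scale the class median of the enzymes exceeded that of the precursors by 1.95 ± 0.013 (SD, n = 2). This SD covers the spread between the libraries and not that over genes, as the 4 enzymes ranged from 1.2 to 293 TPM in mean level. The class median of the receptors differed from that of the precursors by -1.01 ± 0.31 (SD, n = 2), with -0.79 in replicate 1 and -1.23 in replicate 2. Outside the 48 genes the order was the other way, with medians of 0.16 TPM for 28 other precursors and 0.385 TPM for 38 other receptors. The order of these classes thus depended on the genes listed. Since this is tissue RNA, fewer cells of a type and less RNA per cell cannot be told apart.

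**Figure D1:**
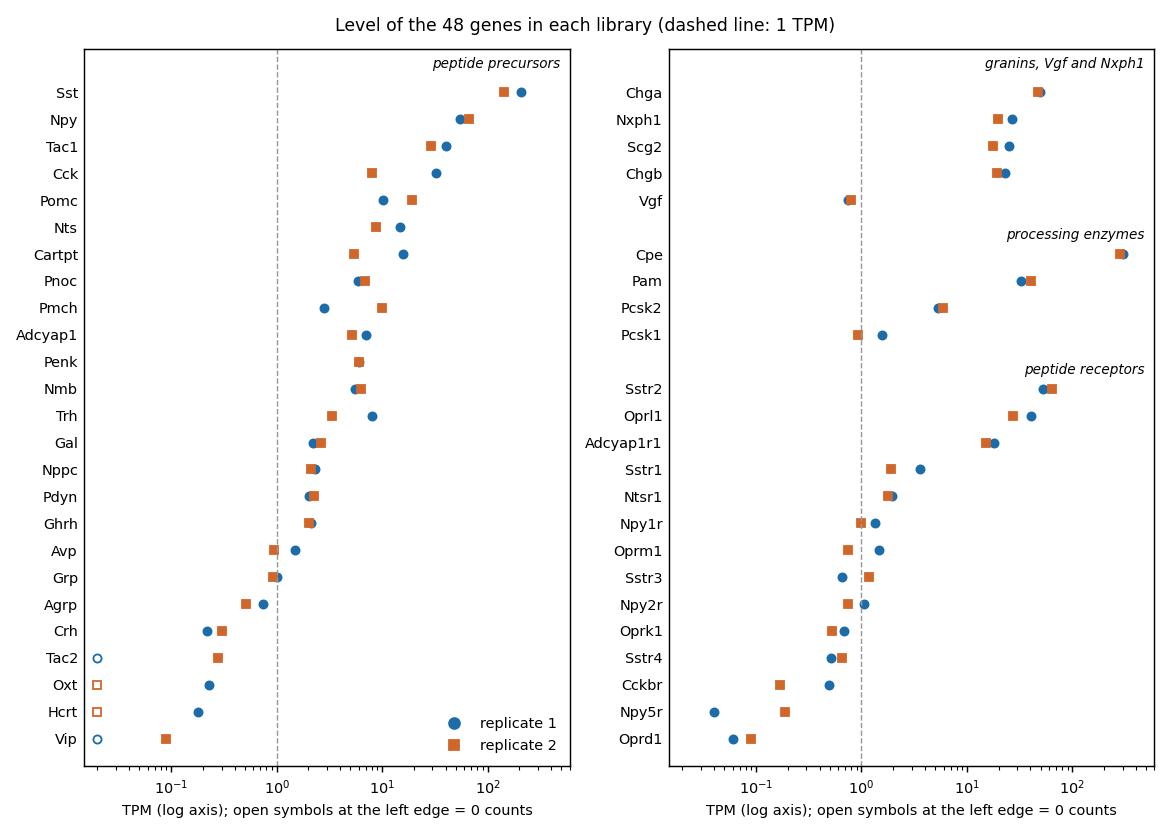
Level of each of the 48 genes in replicate 1 (circles) and replicate 2 (squares), in TPM on a log axis, by class and in order of the mean; open symbols at the left edge stand for 0 counts and the dashed line for 1 TPM. Sst and Cpe led their classes in both libraries, and 9 of the 14 receptors were under 1 TPM in at least 1 library.

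Several of these genes are known targets of the cAMP-responsive factor CREB, whose palindromic site is known from the somatostatin promoter. The site, TGACGTCA, was searched on both strands in RefSeq promoter windows of 300 bases (250 before to 50 after the start of transcription, assembly GRCm38.p6). A window was given for 39 of the 48 genes, and 6 of these 39 (15.4%) held the site, beside 2.03% of the 27025 genes and 1.79% of the 32851 windows in the table. They were the precursors Sst and Cartpt, the granins Scg2 and Chgb, the convertase Pcsk1 and the receptor Sstr2. The site was chosen because some of these genes are known CREB targets, so its share among them is no independent comparison with that in all genes. The 30 bases around each match are shown because each of the 4 classes had at least 1 gene with the site. Only the 8 bases of the site, which were the search string, are common to them, and the bases around it differ. Each stretch reads 5′ to 3′ on the strand of its gene and the capitals mark the site.
Sst: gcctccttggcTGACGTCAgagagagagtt
Cartpt: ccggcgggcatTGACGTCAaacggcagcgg
Scg2: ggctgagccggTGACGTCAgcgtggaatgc
Chgb: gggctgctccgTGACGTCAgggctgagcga
Pcsk1: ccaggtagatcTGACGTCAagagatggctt
Sstr2: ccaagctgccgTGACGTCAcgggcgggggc
The stretch of Sst lies at chr16:23890874-23890903 on the minus strand, with the site 48 to 41 bases before the RefSeq start. That of Cartpt lies at chr13:99900777-99900806 on the minus strand, 112 to 105 bases before the start, and that of Scg2 at chr1:79440076-79440105 on the minus strand, 68 to 61 bases before it. Chgb has it at chr2:132781559-132781588 on the plus strand, 72 to 65 bases before the start, Pcsk1 at chr13:75089768-75089797 on the plus strand, 78 to 71 bases before it, and Sstr2 at chr11:113619258-113619287 on the plus strand, 58 to 51 bases before it. For Sst, Cartpt, Scg2 and Chgb the stretch falls inside the longer GENCODE gene model, which begins upstream of the RefSeq start, and for Pcsk1 and Sstr2 it lies before the GENCODE gene. The 6 genes ranged widely in level, from Pcsk1 at 1.56 and 0.93 TPM to Sst at 210 and 144 TPM in replicates 1 and 2. A match of these letters is a description of the sequence and says nothing about binding in this tissue.

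Among the precursors, Sst was the most abundant. Sst (chr16:23889573-23890958, mm10), which encodes somatostatin, had 2334 estimated counts and 210 TPM in replicate 1 and 1744 counts and 144 TPM in replicate 2, and ranked 863 of the 21474 protein-coding genes by mean TPM. It made up 49.2% and 43.5% of the summed TPM of the 25 precursors. Npy, the precursor of neuropeptide Y, followed at 55.1 and 66.6 TPM, and Tac1, which encodes substance P and neurokinin A, at 40.3 and 29.1 TPM. The ranges of these 3 genes did not overlap. Cck, the precursor of cholecystokinin, was at 32.2 TPM in replicate 1, within the range of Tac1, but at 7.96 TPM in replicate 2.

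A second tier of precursors lay around 5 to 20 TPM. Pomc, the precursor of corticotropin, the melanocortins and beta-endorphin, was at 10.3 and 19.1 TPM in replicates 1 and 2. Nts (neurotensin) was at 14.9 and 8.70 TPM. Cartpt (cocaine- and amphetamine-regulated transcript) was at 15.7 and 5.43 TPM. The order of these 3 genes was reversed between the libraries, with Pomc the lowest of them in replicate 1 and the highest in replicate 2. Trh (thyrotropin-releasing hormone) was at 8.02 and 3.37 TPM, and Pmch, the precursor of melanin-concentrating hormone, at 2.81 and 10.0 TPM. The other precursors of this tier were closer in both libraries. The opioid precursors Penk (enkephalins) and Pnoc (nociceptin) were at 6.08 and 6.09 TPM and at 5.97 and 6.90 TPM, Adcyap1 (the peptide PACAP) at 7.03 and 5.14 TPM, and Nmb (neuromedin B) at 5.56 and 6.29 TPM. Their ranges overlap, so no order among these 4 genes holds beyond the spread.

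Of the remaining precursors, 4 were just above 2 TPM in both libraries and 8 were under 1 TPM in at least 1 library. Gal (galanin) at 2.20 and 2.62 TPM, Nppc (C-type natriuretic peptide) at 2.29 and 2.14 TPM, Pdyn (dynorphins) at 2.01 and 2.25 TPM and Ghrh (growth hormone-releasing hormone) at 2.10 and 2.02 TPM had ratios between the libraries whose counting intervals included 1. Avp (vasopressin) had 15.7 and 11 counts, equal to 1.48 and 0.95 TPM, and Grp (gastrin-releasing peptide) 18 and 17 counts, equal to 1.01 and 0.92 TPM. Agrp, whose product opposes the melanocortins, had 10 and 7 counts, and Crh (corticotropin-releasing hormone) 6 and 9. For 4 precursors 1 library had no count. Tac2 (neurokinin B) had 0 counts in replicate 1, which allows up to 0.202 TPM, and 4 counts (0.28 TPM) in replicate 2, and Vip (vasoactive intestinal peptide) had 0 counts in replicate 1, which allows up to 0.0945 TPM, and 3 counts (0.09 TPM) in replicate 2. Oxt (oxytocin) had 2.27 estimated counts (0.23 TPM) in replicate 1 and 0 in replicate 2, which allows up to 0.283 TPM, and Hcrt, the orexin precursor, had 2 counts (0.18 TPM) in replicate 1 and 0 in replicate 2, which allows up to 0.276 TPM. These limits rest on 3 counts and, like all intervals given here, cover counting error only. For these 4 genes a difference between the libraries was not detectable at this depth. Counts of Avp and Oxt, which are neighbours with similar sequences, were not whole numbers in replicate 1, since the authors' estimate divides shared reads among genes. Ctcf and Ripor1 lie on the opposite strand within the long gene model of Agrp, A830012C17Rik lies opposite Penk, and Sec11a overlaps Nmb on the same strand.

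The granins, soluble proteins of dense-core vesicles, were each above 10 TPM in both libraries. Chga (chromogranin A) was at 49.0 and 47.4 TPM, Scg2 (secretogranin II) at 25.2 and 17.6 TPM and Chgb (chromogranin B) at 22.8 and 19.3 TPM. Nxph1, a secreted glycoprotein that binds neurexins and is no peptide precursor, was at 26.5 and 19.6 TPM. The levels of Nxph1, Scg2 and Chgb overlapped, whereas Chga lay above all 3 in both libraries. Vgf, a granin-like protein whose gene responds to neurotrophins and activity, stood apart with 41 and 48 counts, equal to 0.75 and 0.79 TPM.

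The 4 processing enzymes spanned more than 2 orders of magnitude. Cpe (chr8:64592542-64693054), the carboxypeptidase, was the most abundant of the 48 genes, with 13327 counts and 302 TPM in replicate 1 and 13730 counts and 285 TPM in replicate 2, rank 471 of the protein-coding genes. It made up 88.4% and 85.6% of the summed TPM of the class. Pam, the amidating enzyme, was at 32.8 and 40.9 TPM. The convertases were far lower: Pcsk2 was at 5.37 and 5.93 TPM and Pcsk1 at 1.56 and 0.93 TPM, so that Pcsk2 exceeded Pcsk1 in both libraries. Antisense genes overlap Pcsk2, and no source used here gives the strand setting of the counting, so reads of Pcsk2 and of its antisense partners cannot be told apart.

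Other genes of the processing pathway, from a list of 17, were at 1 TPM or more in both libraries in 15 cases, with a median of 6.55 TPM. The list was led by the Pcsk2 chaperone Scg5 at 111 and 111 TPM, the Pcsk1 inhibitor Pcsk1n at 69.0 and 68.8 TPM and the granin-family member Scg3 at 62.9 and 66.4 TPM. Scg5 thus exceeded its partner Pcsk2, and Pcsk1n its partner Pcsk1, in both libraries.

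Among the 14 receptors, 5 were at 1 TPM or more in both libraries, 5 were under 1 TPM in both, and 4 crossed it. Sstr2, a somatostatin receptor, was at 52.8 and 64.1 TPM and made up 42.8% and 55.3% of the summed TPM of the class. Oprl1, the nociceptin receptor, was at 40.5 and 27.5 TPM, and Adcyap1r1, the PACAP receptor, at 18.1 and 15.2 TPM. The ranges of these 3 receptors did not overlap as gene levels. Protein-coding transcripts made up 34.5% and 42.9% of the TPM of Oprl1 but 100% of that of Adcyap1r1. At these estimated shares, the protein-coding RNA of Oprl1 was below that of Adcyap1r1 in both libraries, the reverse of the order of their gene levels. Sstr1, another somatostatin receptor, was at 3.56 and 1.92 TPM and the neurotensin receptor Ntsr1 at 1.94 and 1.80 TPM. The other receptors were lower. The neuropeptide Y receptors Npy1r (1.35 and 0.98 TPM) and Npy2r (1.06 and 0.74 TPM), the mu opioid receptor Oprm1 (1.47 and 0.75 TPM) and the somatostatin receptor Sstr3 (0.66 and 1.19 TPM) crossed 1 TPM. For Oprm1 this rested on the estimate used: its deposited posterior mean TPM, 3.41 and 2.24, was above 1 in both libraries. Under it in both libraries were the kappa opioid receptor Oprk1 (0.69 and 0.52 TPM), Sstr4 (0.51 and 0.65 TPM), the cholecystokinin receptor Cckbr (0.49 and 0.17 TPM), Npy5r (0.04 and 0.19 TPM) and the delta opioid receptor Oprd1 (0.06 and 0.09 TPM), the last with 5 and 9 counts. Slc39a11 overlaps Sstr2 on the opposite strand, and Ipcef1 and Gm10945 overlap Oprm1, so reads of these neighbours cannot be told apart from those of the receptors without the strand.

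Set side by side, peptides and their receptors did not share 1 pattern of level across 15 pairs. Sst at 210 and 144 TPM stood beside 1 abundant receptor, Sstr2, and 3 low ones. Npy at 55.1 and 66.6 TPM stood beside 3 receptors with means of 1.17 TPM or less. The opioid peptides showed both arrangements. At the level of the gene, Pnoc, at 5.97 and 6.90 TPM, was lower than its receptor Oprl1, at 40.5 and 27.5 TPM, in both libraries. Adcyap1 was likewise lower than Adcyap1r1. In contrast, Penk and Pdyn exceeded their receptors Oprd1 and Oprk1 in both libraries. For Oprl1 the gene level overstates receptor-coding RNA. Its protein-coding transcripts made up 34.5% and 42.9% of its TPM. Among them, the transcript of 367 codons was at 7.89 and 7.49 TPM. This part of the coding RNA alone was slightly above Pnoc in both libraries. Cck exceeded Cckbr, whose levels were 0.49 and 0.17 TPM, and the second cholecystokinin receptor, Cckar, was at 2.97 and 2.81 TPM.

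**Figure D2:**
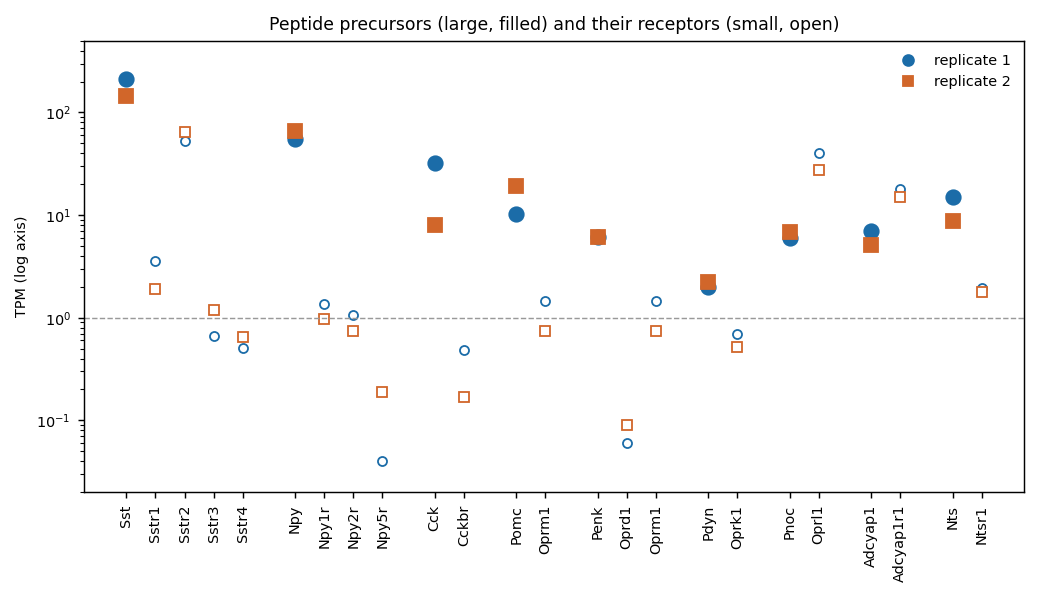
TPM (log axis) of 9 peptide precursors (large filled symbols) and of their listed receptors (small open symbols) in replicate 1 (circles) and replicate 2 (squares). The receptors Oprl1 and Adcyap1r1 lie above their peptide precursors Pnoc and Adcyap1 in both libraries, and every other receptor shown lies below its precursor. Levels are those of whole genes, and most of the Oprl1 level came from transcripts not annotated as protein coding.

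Receptors outside the 48 genes, from a list of 39 with 38 matched, were mostly low, with 9 at 1 TPM or more in both libraries and 29 under it in both. They were led by the endothelin receptor Ednrb at 48.2 and 44.1 TPM, Npr2, the receptor of the Nppc product, at 9.03 and 7.47 TPM, and Calcrl, a receptor of the calcitonin gene-related peptide family, at 4.72 and 4.66 TPM. The melanocortin receptor Mc4r, whose ligands derive from Pomc, was at 4.23 and 4.39 TPM. Mchr1, the receptor of the Pmch product, was at 0.73 and 0.75 TPM, and Tacr1, the receptor of substance P, at 0.68 and 0.34 TPM. Of 28 matched other peptide precursors, 6 were at 1 TPM or more in both libraries and 6 had no count in either. The 3 highest were Apln (apelin) at 4.17 and 4.06 TPM, Adm (adrenomedullin) at 3.33 and 4.08 TPM and Edn3 (endothelin 3) at 2.37 and 3.06 TPM.

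The libraries are replicates of 1 group, and 6 of the 48 genes differed between them by 1.5-fold or more. This was read from the ratio of TPM among genes with a mean of 100 or more counts, which 24 of the 48 reached, and with 1 library against 1 it has no test. Cck, Cartpt, Trh, Nts and Sstr1 were lower in replicate 2, which is 5 of 24, beside 2.25% of the 11967 protein-coding genes in the same range. Pomc was higher in replicate 2, which is 1 of 24, beside 0.409% of these genes. With counts scaled by TMM (trimmed mean of M-values), 1.2% of protein-coding genes were lower and 0.602% higher, and the same 6 members passed. The differing members lay at low counts: 14 of the 24 had a mean of 100 to 1000 counts, and all 6 were among them, beside 5.06% of protein-coding genes lower and 0.839% higher in that range, while none of the 10 with 1000 counts or more passed. At a 2-fold limit Cck, Cartpt and Trh were lower and no member was higher, beside 0.46% and 0.0418% of protein-coding genes.

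Cck (chr9:121489824-121495694) showed the largest difference of the 24 genes, with 420 counts in replicate 1 and 113 in replicate 2, a level 4.05-fold higher in replicate 1 (95% counting interval 3.28 to 5.03). Cartpt, with 270 and 102 counts, was 2.89-fold higher in replicate 1 (2.29 to 3.66), and Trh, with 229 and 105 counts, 2.38-fold higher (1.88 to 3.03). Sstr1 was 1.85-fold higher in replicate 1 (1.42 to 2.44) and Nts 1.71-fold higher (1.45 to 2.03), so the lower bounds of both lie under 1.5-fold. Pomc (chr12:3954951-3960642), with 208 and 421 counts, was 1.86-fold higher in replicate 2 (1.57 to 2.20). Pmch differed more than Pomc, with 40.7 and 158 estimated counts and a level 3.56-fold higher in replicate 2 (2.50 to 5.12), but its mean of 99.2 counts lay just under the minimum. Its counts were not whole numbers, and Parpbp overlaps it on the opposite strand, so part of them was assigned among genes by the authors' estimate.

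Just inside the 1.5-fold limit were Oprl1, with a ratio of replicate 2 over replicate 1 of 0.680, Sst with 0.685 and Scg2 with 0.700. Of the 5 genes with the most counts, the ratio was 0.945 for Cpe, 1.25 for Pam, 1.21 for Sstr2, 0.685 for Sst and 0.837 for Adcyap1r1. The ratio was below 1 for 16 of the 24 genes and above 1 for 8, with a median log2 ratio of -0.25, beside -0.11 for all 11967 protein-coding genes. Under TMM scaling the median of all genes was 0.0079, so the side of 1 on which genes such as Cpe, Chga and Ntsr1 fall depends on the scaling.

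**Figure D3:**
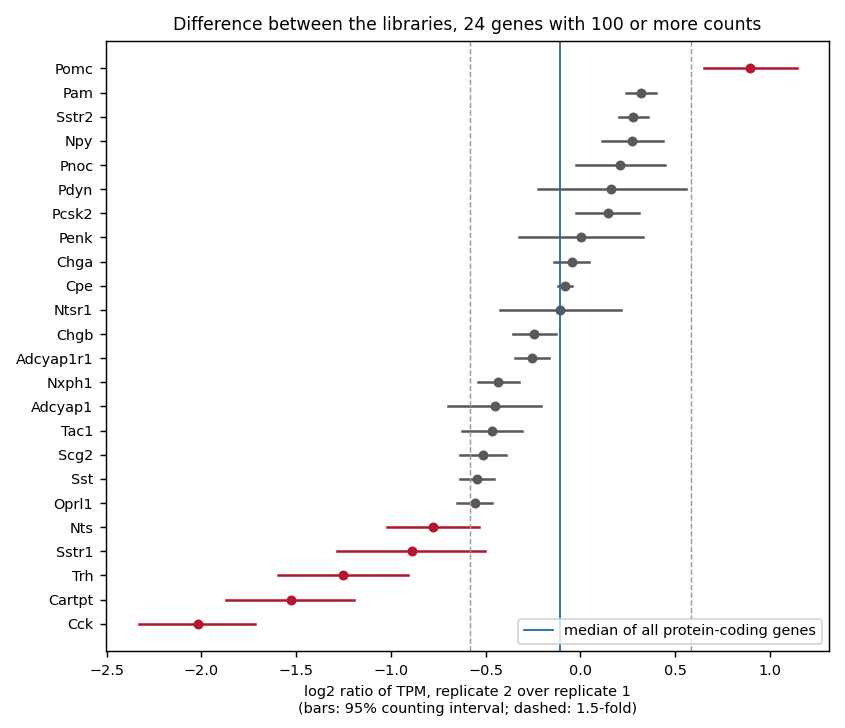
Log2 ratio of TPM, replicate 2 over replicate 1, for the 24 genes with a mean of 100 or more counts; bars are 95% counting intervals, dashed lines mark 1.5-fold and the blue line the median of all protein-coding genes with as many counts. Cck, Cartpt, Trh, Sstr1 and Nts lie left of the lower dashed line and Pomc right of the upper one.

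Markers of regions within the forebrain also differed between the libraries. Of 12 hypothalamus and preoptic markers, 8 had 100 or more counts. Of these 8, 5 were lower and 1 was higher in replicate 2 by 1.5-fold, with a median log2 ratio of -1.14. None of the 12 was at 0 in either library, and their summed level was 134 and 106 TPM. Isl1 alone gave 66.4 and 76.3 TPM of this sum, which therefore rests largely on 1 gene. Sim1, a factor of the paraventricular nucleus, was at 3.55 and 0.82 TPM, Otp at 8.62 and 3.0 TPM and Fezf1 at 33.8 and 11.6 TPM, while Nr5a1, a factor of the ventromedial nucleus, was at 1.19 and 1.94 TPM. Hypothalamic markers past 1.5-fold were thus mostly lower in replicate 2, with 1 exception. Among the precursors that the hypothalamus is known to express, Trh and Cartpt were lower in replicate 2 and Pomc and Pmch higher. For Gal, Ghrh, Pdyn, Agrp and Avp the counting intervals of the ratio included 1, and all of these but Pdyn had a mean under 100 counts. Of 8 choroid plexus markers with 100 or more counts, 6 were lower in replicate 2. The summed level of the choroid plexus list was 508 and 273 TPM, of which Ttr alone gave 420 and 217 TPM. Of 9 preplate and Cajal-Retzius markers, 2 were lower, with a summed level of 170 and 133 TPM. Among 8 cortical excitatory markers, 3 were higher in replicate 2 (summed level 350 and 503 TPM), as were 3 of 8 thalamic markers (220 and 293 TPM). Neurod6 alone gave 145 and 257 TPM of the cortical sum, and Tcf7l2 alone 108 and 174 TPM of the thalamic sum. The median of the thalamic list was 17.7 TPM in each library. Of 12 interneuron and ganglionic eminence markers, 2 were higher, Nkx2-1 (10.5 and 18.6 TPM) and Lhx8 (13.2 and 20.0 TPM), with a summed level of 489 and 511 TPM, while Sst was at 210 and 144 TPM. None of the 6 pan-neuronal markers passed 1.5-fold. The part of these shifts in the differences of Cck, Cartpt, Trh, Nts, Sstr1 and Pomc was not tested.

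**Figure D4:**
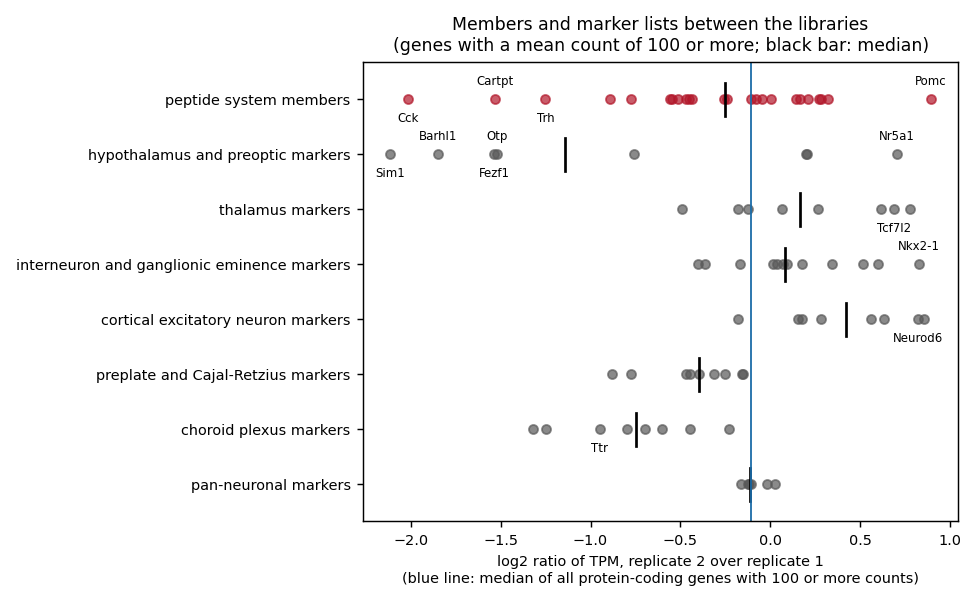
Log2 ratio of TPM, replicate 2 over replicate 1, for peptide system genes (top) and for marker lists; each point is a gene with a mean of 100 or more counts, black bars are list medians and the blue line is the median of all protein-coding genes. The hypothalamus and preoptic list has a median of -1.14 and the peptide system genes one of -0.25.

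Transcripts were described for the same 24 genes. Of these, 12 had 1 annotated transcript, and 7 of the other 12 had at least 2 transcripts with 10% or more of the gene's TPM. Tac1 RNA was spread over 3 coding transcripts, of 115 codons (46.8% and 44.6%), 112 codons (26.6% and 26.9%) and 130 codons (25.6% and 27.5%), which are known to differ in whether they also encode neurokinin A and its extended forms. Scg2 was split between transcripts of 577 codons (58.9% and 59.3%) and 617 codons (41.1% and 40.7%), and Nxph1 between 2 transcripts with the same number of codons, 271, and shares of 60.5% and 65.0% against 31.7% and 29.4%. For these 3 genes the shares differed little between the libraries.

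The shares of Penk and Pam differed more. For Penk, whose summed level was nearly equal in the libraries, the transcript of 268 codons had 78.1% and 56.0% and the shorter one of 178 codons 21.9% and 44.0%, on 18.4 and 40.4 estimated counts of the latter. For Pam, the transcript of 873 codons had 58.8% and 71.3% and that of 978 codons 5.46% and 17.5%. Pcsk2 was mainly its coding transcript, at 89.0% and 85.2%, the rest being a transcript with no coding sequence. Oprl1 was the 1 gene whose leading transcript was not coding: a processed transcript had 37.7% and 35.8%, the coding transcript of 367 codons 19.5% and 27.2%, and a transcript annotated for nonsense-mediated decay 21.1% and 17.1%. All protein-coding transcripts of Oprl1 together made up 34.5% and 42.9% of its TPM, so its level as a gene is not its level of receptor-coding RNA. These shares are estimates, since transcripts of a gene share most of their reads.

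**Figure D5:**
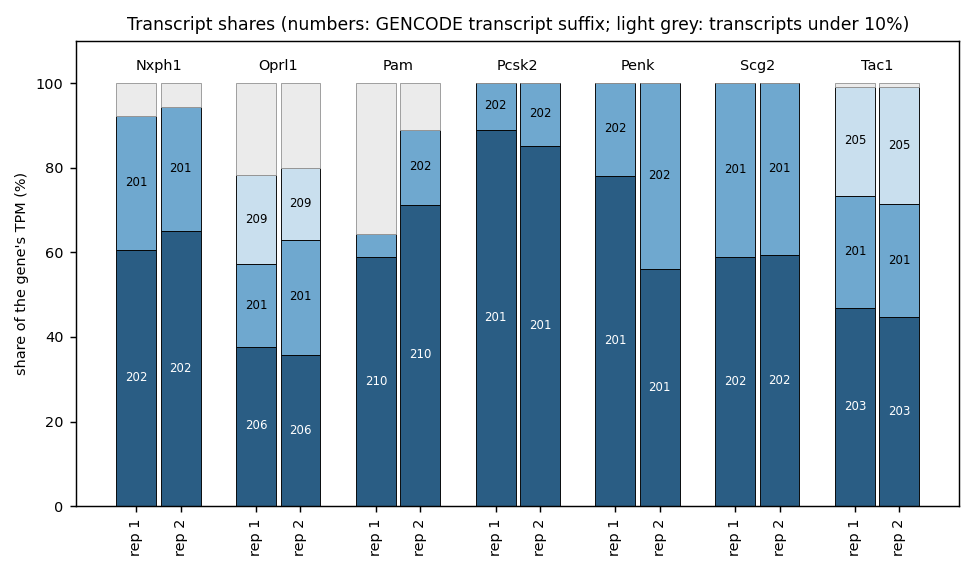
Share of each gene's TPM (%) taken by its transcripts in replicates 1 and 2 for the 7 genes with at least 2 transcripts at 10% or more; numbers are GENCODE transcript suffixes and light grey is the sum of transcripts under 10%. The 2 bars of a gene differ most for Penk and Pam and least for Scg2.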

How the data were processed

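Total RNA from 2 forebrain samples of 1 group was sequenced, and the authors deposited a gene table and a transcript table per library, on mm10 with GENCODE M4. Per the file headers these hold estimated counts (expected counts, in which the authors' quantification divided reads shared by several transcripts), TPM and FPKM values made from them by length and library total, posterior means and, for transcripts, the percent share of the gene. The aligner, the version of the quantification and the strand setting are each not given in the sources. Of 69691 rows, 26345 name no mouse gene and entered no comparison; 42462 of 43346 mouse genes matched GENCODE M21 by identifier. The extraction links in the labels include a manual for a low-input cDNA kit.

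With 2 libraries of 1 group no test was possible, and values are given per library. The counting intervals of ratios are 95% exact binomial intervals on the counts of both libraries; a count of 0 allows 3 counts. Ratios needed a mean of 100 estimated counts. Class contrasts used log2(TPM + 1), and transcript shares were computed from transcript TPM. The members and lists were chosen with earlier results of these data known. Every member at 1 TPM or more in both libraries and every member past 1.5-fold is named; other lists give counts and the 3 highest genes, and further marker genes were named after their values were seen. No column of another sample was present. Alternatives were FPKM, posterior means, other limits and pseudocounts, edgeR 4.0.16 TMM and DESeq2 1.42.0 size factors as scalings only (R 4.3.3), and leaving out each replicate. Python 3.11.15, pandas 2.3.3, numpy 2.4.6 and scipy 1.17.1 were used, and the ratio step was tested on simulated data. The estimates of overlapping genes depend on how the authors assigned shared reads. Protein sequences were not used here. The result of 1 marker list is not reported here.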

Additional observations from a re-analysis of the deposited data

How the results depend on the processing

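No alternative run reversed a class contrast or the direction of a member past 1.5-fold. With FPKM in place of TPM the class medians were 3.63 for precursors, 13.7 for granins, Vgf and Nxph1, 13.7 for enzymes and 0.65 for receptors. Class means of log2(TPM + 1) over members, used in place of medians and turned back to TPM, were 4.51 for precursors, 15.0 for granins, Vgf and Nxph1 and 2.39 for receptors. In 1 library alone the precursor median ranged from 2.81 to 3.37 TPM. The enzyme minus precursor contrast was 1.84 with FPKM, 2.19 with a pseudocount of 0.1, 1.91 with means over members and 1.28 with granins, Vgf and Nxph1 among the precursors; the receptor minus precursor contrast was -1.51, -0.67 and -1.69 under the last 3 of these. Of the members past 1.5-fold, 9 were lower and 3 higher with a minimum of 10 counts, which added Avp, Pmch, Pcsk1, Sstr3, Cckbr and Oprm1; 3 were lower and 0 higher at 2-fold, which dropped Pomc, Nts and Sstr1. All 6 passed under TMM, DESeq2 size factors, posterior means and a pseudocount of 1. By posterior mean TPM, 31 members were at 1 TPM or more in both libraries, which added Oprm1 (3.41 and 2.24) and Grp (1.21 and 1.07), and Vgf (0.95 and 1.06) crossed 1 TPM. No paired analysis was possible because there was only 1 group. Ratios between the libraries need both libraries, so leaving one out gave no value for them. The count of processing sites in precursor proteins was not run. Depth limits the 8 members with a mean under 10 counts.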
